A study of Drosophila melanogaster with 9 samples.

Results

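The genes described here are 9 genes used to mark glia or to build their septate junctions in Drosophila melanogaster: repo, gcm, Gs2, Eaat1, moody, wrapper, nrv2, loco and Nrx-IV. They were found by their current or former symbols in the annotation of the array. Of the 9 genes, 8 had a named probe set, 1 each, among 18769 probe sets tested, and Eaat1 was not analysed here. RNA came from cells of the body wall of wandering larvae in the third instar, sorted for the membrane marker mCD8:GFP. All animals carried the driver GAL4[21-7], labelled as active in all da (dendritic arborization) neuron classes, with UAS-mCD8:GFP, and were reared at 25 °C. Control animals carried the driver and marker alone. Ab ME animals also carried UAS-abL, for ectopic Abrupt, and Kn ME animals carried UAS-knL:HA, for ectopic Knot, both transcription factors of sensory neurons. Each group held 3 arrays, and each array was made from a pool of 80 body walls. The 3 samples of a group are labelled as biological replicates.

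Glia of the peripheral nerves ensheath the axons of sensory neurons and seal the nerve from the blood. The seal rests on septate junctions, ladder-like contacts between the flanks of a cell or of neighbouring cells, which epidermis, trachea and other epithelia build from the same proteins. Other glial functions are the clearance of transmitter, the recycling of glutamate to glutamine, and the engulfment of debris. In flies gcm starts the glial fate in the embryo, and repo, its target, maintains it in nearly all glia outside the midline.

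Values are RMA expression values on a log2 scale, so a difference of 1 is a 2-fold difference, and levels of different probe sets are not set against each other. The median of all values was 1.54, and a value near or below it may be background, since detection calls were not used here. Pearson r between replicates over the probe sets was 0.93 to 0.944 for Control, 0.984 to 0.985 for Ab ME and 0.974 to 0.977 for Kn ME. Control replicate 2 gave the lowest Control value for 6 of the 8 glial genes, and Control replicate 3 the highest for 5. In the other groups too, replicate 2 was most often the lowest, for 4 genes in Ab ME and 4 in Kn ME. Replicate 3 was the highest for 5 genes in Ab ME and 6 in Kn ME. Markers of the labelled cell type were measured: the neuronal gene elav had Control values of 6.46, 6.06 and 6.29. The hemocyte (blood cell) gene Hml had Control values of 9.46, 8.83 and 7.70.

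The defining marker of glia, repo, did not stand clear of the background, so the genes are described by name and not as a measure of glia. For repo, a homeodomain transcription factor, values were 2.02, 1.23 and 1.65 (Control), 0.79, 1.05 and 1.5 (Ab ME) and 0.61, 0.80 and 0.91 (Kn ME). Only 2 of the 9 arrays, both Control, lay above the median of all values. The Kn ME arrays lay below all Control arrays, and the Ab ME arrays overlapped them. Differences from Control were -0.52 in Ab ME (SE 0.25, limma adjusted p = 0.196) and -0.86 in Kn ME (SE 0.25, adjusted p = 0.0897), and neither passed the threshold of 0.05. Without Control replicate 2 the Kn ME difference was -1.06 and passed (adjusted p = 0.0492). It did not pass under the other 13 of 14 alternatives (adjusted p up to 0.234). Among these it was -0.67 without Control replicate 1 and -0.75 with arrays centred on their medians.

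The fate gene gcm and the surface gene wrapper were also dim. Values of gcm, a zinc-binding transcription factor that embryonic blood cells use as well, were 0.72, 0.90 and 1.47 (Control), 0.71, 0.67 and 0.80 (Ab ME) and 0.87, 1.10 and 0.95 (Kn ME). All 9 lay below the median of all values. Differences from Control were -0.30 in Ab ME (95% interval -0.75 to 0.15) and -0.05 in Kn ME (-0.51 to 0.40). Its paralog gcm2 differed by -0.15 and -0.38 (limma adjusted p = 0.601 and 0.273). For wrapper, an immunoglobulin-family protein of glia that enwrap axons, values were 0.88, 0.70 and 2.21 (Control), 0.64, 0.70 and 0.53 (Ab ME) and 0.69, 0.45 and 1.36 (Kn ME). Control replicate 3 was the single array above the median of all values. Differences of -0.64 (limma adjusted p = 0.305) and -0.43 (adjusted p = 0.597) did not pass. Without Control replicate 3 the Kn ME difference turned to 0.04.

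**Figure D1:**
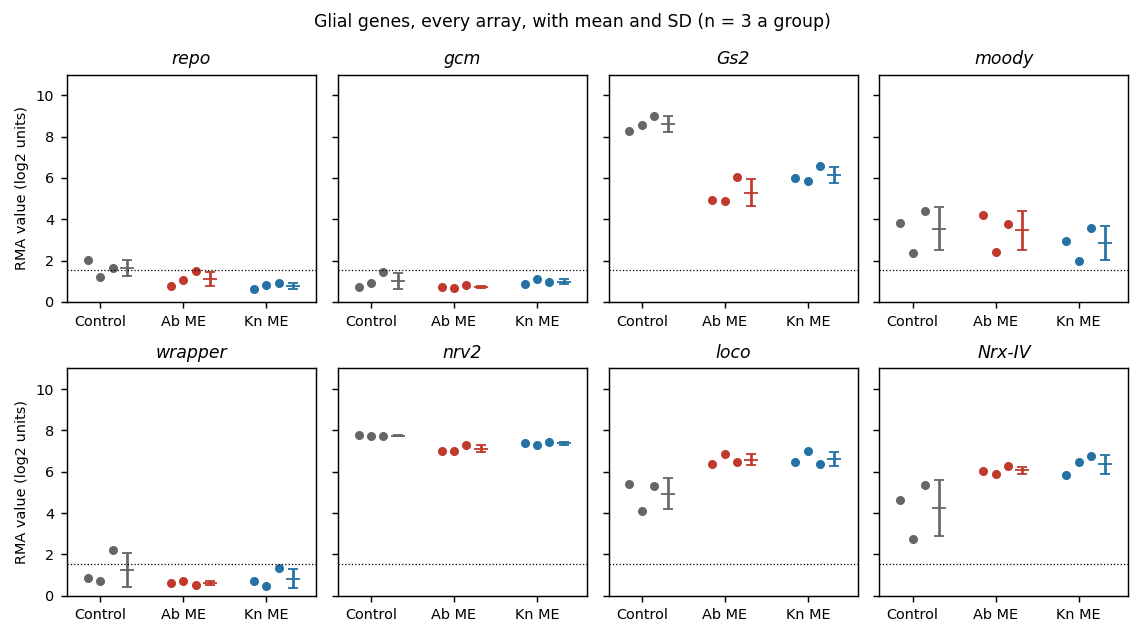
RMA values (log2 units, vertical axis) of the 8 measured glial genes on every array, by group. Points are arrays in replicate order, bars are the mean and SD of 3 arrays, and the dotted line is the median of all values, 1.54. All arrays of Gs2, moody, nrv2, loco and Nrx-IV lie above the line, and most arrays of repo, gcm and wrapper below it.

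Gs2, which encodes the cytosolic glutamine synthetase, the enzyme that joins ammonia to glutamate, fell in both groups. Its values were 8.26, 8.55 and 9.0 (Control), 4.95, 4.86 and 6.06 (Ab ME) and 5.99, 5.86 and 6.60 (Kn ME). Every Control array was higher than every array of the other groups. The mean went from 8.60 ± 0.38 in Control to 5.29 ± 0.67 in Ab ME and 6.15 ± 0.40 in Kn ME (SD, n = 3 each). These differences were 9.92-fold in Ab ME (log2 -3.31, SE 0.36, limma adjusted p = 0.000913) and 5.48-fold in Kn ME (log2 -2.45, SE 0.36, adjusted p = 0.00916). Both passed under all 15 alternatives. As in any bulk sample, fewer cells of a type and less RNA per cell cannot be told apart.

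The genes around Gs2 in the glutamate and glutamine cycle did not share one course. Gs1, the mitochondrial glutamine synthetase, had values of 8.12, 7.47 and 7.24 (Control), 7.88, 7.06 and 7.85 (Ab ME) and 8.34, 8.81 and 8.46 (Kn ME). Its differences were -0.01 in Ab ME (95% interval -0.69 to 0.67) and 0.92 in Kn ME (limma adjusted p = 0.124), and the Kn ME arrays lay above all Control arrays. Eaat2, a transporter of acidic amino acids related to Eaat1, fell in both groups, with log2 differences of -2.36 for Ab ME (SE 0.43, limma adjusted p = 0.00971) and -2.83 for Kn ME (SE 0.43, adjusted p = 0.011). Its values were 4.52, 5.85 and 5.50 (Control), 2.48, 2.92 and 3.38 (Ab ME) and 3.19, 1.93 and 2.25 (Kn ME). Gdh, glutamate dehydrogenase, fell by 0.90 in Ab ME (adjusted p = 0.0227) and differed by -0.17 in Kn ME (adjusted p = 0.689). The Gdh call was lost without Ab ME replicate 1 (0.0746) or 2 (0.0821). The transporters Gat and VGlut were dim and did not pass in either group. In all, 3 of 6 measured genes of this list, Gs2 among them, fell in Ab ME and 2 in Kn ME, and 0 rose. Over all probe sets 5.25% fell and 8.72% rose in Ab ME, and 1.95% fell and 3.34% rose in Kn ME.

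The barrier receptor moody and its regulator loco behaved differently. For moody, a G protein-coupled receptor of the glia that form the blood-brain barrier, values were 3.84, 2.38 and 4.41 (Control), 4.22, 2.40 and 3.77 (Ab ME) and 2.97, 2.00 and 3.60 (Kn ME). The 3 groups overlapped, and the array labelled replicate 2 was the lowest of each. Differences were -0.08 in Ab ME (95% interval -1.58 to 1.42, limma adjusted p = 0.946) and -0.69 in Kn ME (-2.19 to 0.81, adjusted p = 0.612). A difference of 2-fold in either direction lies inside the Ab ME interval. The Kn ME interval holds a 2-fold fall but not a 2-fold rise. The sign in Ab ME turned when arrays were centred on their medians (0.09).

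For loco, a regulator of G protein signalling that acts on the alpha subunit downstream of moody, values were 5.41, 4.08 and 5.33 in Control. The Ab ME arrays read 6.38, 6.87 and 6.46 and the Kn ME arrays 6.48, 7.01 and 6.37, all above every Control array. The gene rose 3.09-fold in Ab ME (log2 1.63, SE 0.36, limma adjusted p = 0.0209) and 3.20-fold in Kn ME (log2 1.68, SE 0.36, adjusted p = 0.0352). The rise was close to the threshold. In Ab ME it was lost without any single Ab ME array (adjusted p up to 0.0771) and with only the 6 arrays compared (0.0524). In Kn ME it was lost without any single Ab ME or Kn ME array (up to 0.123), with only the 6 arrays compared (0.108) and with the replicate block (0.0663).

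Of the other genes of the moody pathway, Galphai, the alpha subunit on which loco acts, and Galphao, another alpha subunit, were measured. Galphai differed by 0.69 in Ab ME and 0.93 in Kn ME (limma adjusted p = 0.274 and 0.238), with a Control range of 5.80 to 7.62 and its lowest value on Control replicate 2. Galphao fell by 0.80 in Ab ME (adjusted p = 0.0382) and differed by -0.79 in Kn ME (adjusted p = 0.0695), and its arrays lay below all Control arrays in both groups. The Ab ME call of Galphao was lost in 9 of 15 alternatives, among them the removal of Control replicate 1 (0.0743) or 3 (0.0810), of any single Ab ME array (up to 0.130) or of Kn ME replicate 1 (0.0582).

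Septate junction genes in the list were nrv2 and Nrx-IV. The first, nrv2, encodes a beta subunit of the sodium pump that epithelial septate junctions also need. Values were 7.76, 7.74 and 7.74 (Control), 7.00, 7.02 and 7.30 (Ab ME) and 7.38, 7.29 and 7.43 (Kn ME). Control arrays were above all others and differed from each other by an SD of 0.01. In Ab ME nrv2 fell by 0.63 (SE 0.13, limma adjusted p = 0.0164), a 1.55-fold difference. In Kn ME the difference of -0.37 did not pass (SE 0.13, adjusted p = 0.155). The Ab ME call was lost in 5 of 15 alternatives, among them without Ab ME replicate 1 (0.0679) or 2 (0.0668). Its probe set carries the suffix _s_at, which by the naming of the array maker marks probes that can match several transcripts. Probe sets of other genes named here carry it too, among them those of Gs1, nrv3, Galphao, ogre, bnb, vari and Gli, and a dimmer one of scrib.

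Other sodium pump subunits moved less or with wider spread. The neighbouring gene nrv1, another beta subunit, had values of 6.38, 6.5 and 7.13 in Control, and differed by -0.04 in Ab ME (95% interval -0.56 to 0.47) and by -0.28 in Kn ME (-0.80 to 0.23). For nrv3, the beta subunit known mainly from neurons, the differences were -0.45 and -1.15 (limma adjusted p = 0.459 and 0.137). All 3 Kn ME arrays of nrv3 (5.58, 5.54 and 4.69) lay below the Control arrays (6.89, 5.86 and 6.51).

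Nrx-IV encodes a transmembrane protein at the core of the septate junction. Its values were 4.62, 2.73 and 5.38 (Control), 6.02, 5.91 and 6.26 (Ab ME) and 5.86, 6.45 and 6.75 (Kn ME). Every array of both other groups lay above every Control array, but the Control arrays spread over an SD of 1.36. Differences of 1.82 in Ab ME (SE 0.59, limma adjusted p = 0.0749) and 2.1 in Kn ME (SE 0.59, adjusted p = 0.0819) did not pass. Both passed without Control replicate 3 (2.38, adjusted p = 0.0238, and 2.67, adjusted p = 0.0298) and when only probe sets above the median of all values were tested (0.0381 and 0.0409). Without Control replicate 2 they shrank to 1.06 and 1.35 and did not pass.

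**Figure D2:**
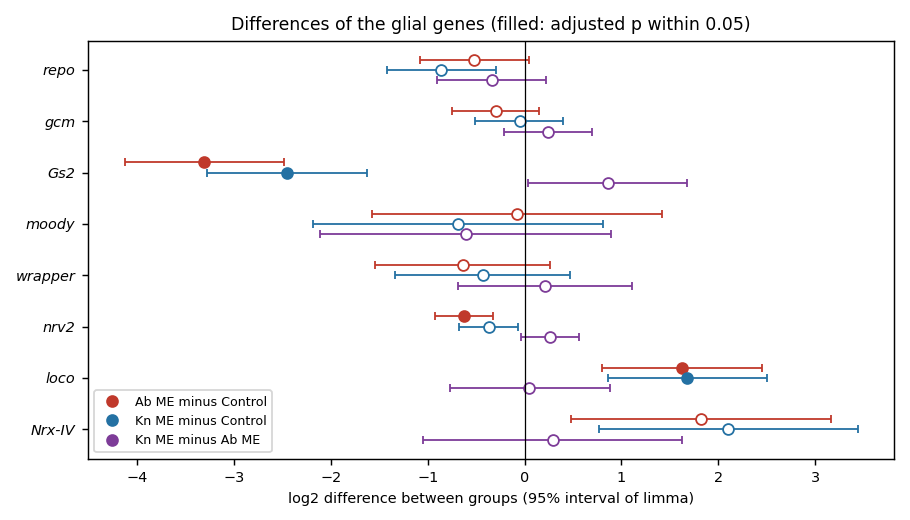
Log2 differences between groups (horizontal axis) with 95% intervals from limma, for the 8 glial genes. Filled points passed at an adjusted p of 0.05: Gs2 and loco against Control in both groups and nrv2 in Ab ME. No point for Kn ME minus Ab ME is filled.

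Counted together, 1 of the 8 measured genes (loco) rose and 2 (Gs2 and nrv2) fell in Ab ME, where 8.72% of all probe sets rose and 5.25% fell (14.0% in either direction). In Kn ME 1 rose (loco) and 1 fell (Gs2), where 3.34% of all probe sets rose and 1.95% fell (5.29% in either direction). With Ab ME replicate 1 or 2 left out the Ab ME count was 1, and with any single Ab ME or Kn ME array left out the Kn ME count was 1. Arrays did not overlap with Control for 5 of the 8 genes in each group. Over all probe sets this held for 34.9% in Ab ME and 21.8% in Kn ME. The median difference of the 8 genes was -0.41 in Ab ME and -0.40 in Kn ME, against -0.06 and -0.03 over all probe sets. Both comparisons use the same Control arrays, so their likeness is not independent evidence.

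Between Kn ME and Ab ME 0 of the 8 genes passed the limma test, which 0.517% of all probe sets passed, and Gs2 alone had an unadjusted p under 0.05, as 8.75% of all probe sets had. Gs2 differed by 0.86 (95% interval 0.03 to 1.68, adjusted p = 0.537). For loco the difference was 0.05 (-0.77 to 0.88) and for Nrx-IV 0.29 (-1.05 to 1.62). The difference for nrv2, 0.26 (-0.04 to 0.56, adjusted p = 0.666), did not pass either, so its call in Ab ME alone does not set the groups apart.

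Among 15 other glial genes measured, 6 fell and 1 rose in Ab ME, and 5 fell and 1 rose in Kn ME, beside 5.25% lower and 8.72% higher over all probe sets for Ab ME and 1.95% and 3.34% for Kn ME. The median differences were -1.58 and -1.28. Not all of the list fell. Passing in neither group were gcm2, Gat, zyd and Mdr65, with means over the 9 arrays (0.93, 0.89, 0.94 and 1.52) below the median of all values. Of brighter genes, alrm (-0.14 and -0.88), Tret1-1 (-1.95 and -1.48), htl (-2.61 and -1.57) and Gli (-0.53 and 1.05) did not pass either. The innexins Inx2 and ogre, gap junction subunits of glia and epithelia, fell in Ab ME, with log2 differences of -3.35 and -3.32 (limma adjusted p = 0.000182 and 0.000554). In Kn ME they fell too (-1.69 and -1.74, adjusted p = 0.00781 and 0.0199), and the ogre call in Kn ME was lost without Kn ME replicate 1 (0.0556) and with only the 6 arrays compared (0.0704). Ebony (e), an enzyme of glia and epidermis that joins beta-alanine to amines, fell in both groups (-4.03 and -3.19, adjusted p = 0.000778 and 0.00624). The brightest probe set of axo, which encodes the glial protein axotactin, fell in both groups (-1.58 and -1.35, adjusted p = 0.000638 and 0.00404), and of its other probe sets 1 fell in Ab ME (-1.42, adjusted p = 0.0121). For bnb the difference of -3.14 in Ab ME passed (adjusted p = 0.00459) and the difference of -1.28 in Kn ME did not (adjusted p = 0.19).

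The gene that rose was drpr, the engulfment receptor Draper of glia and hemocytes. Its values were 6.75, 6.88 and 6.59 (Control), 7.77, 8.03 and 8.62 (Ab ME) and 7.86, 7.97 and 8.02 (Kn ME), with no overlap with Control. It rose by 1.40 log2 units with Abrupt (SE 0.22, limma adjusted p = 0.00456) and by 1.21 with Knot (SE 0.22, adjusted p = 0.0188), and the Kn ME call was lost without any single Kn ME array (up to 0.0708).

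**Figure D3:**
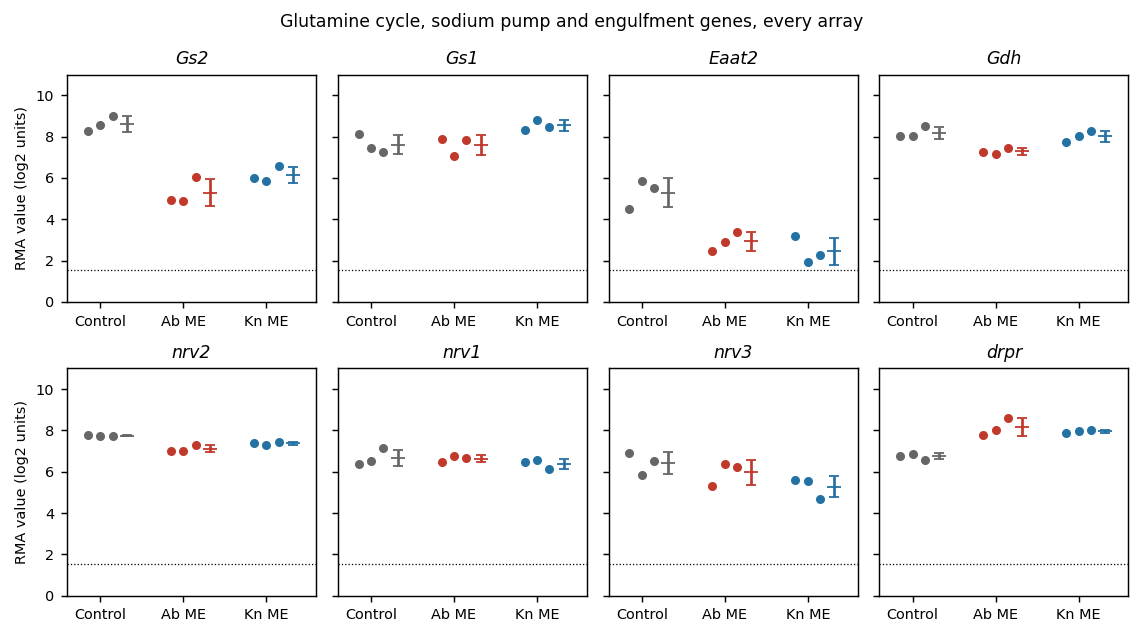
RMA values (log2 units) on every array for Gs2, Gs1, Eaat2 and Gdh of the glutamine cycle, the sodium pump subunits nrv2, nrv1 and nrv3, and drpr. Points are arrays, bars the mean and SD of 3 arrays, and the dotted line the median of all values, 1.54. Control arrays of Gs2, Eaat2 and nrv2 lie above all others and those of drpr below.

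The wider septate junction list did not move as a unit. Of 25 genes measured, nrv2 and Nrx-IV included, 2 fell in Ab ME and 0 rose by their brightest probe sets, with a median difference of -0.23 (5.25% fell and 8.72% rose over all probe sets). A dimmer probe set of the polarity gene scrib rose in Ab ME (log2 difference 2.50, SE 0.54, limma adjusted p = 0.0189), while its brightest differed by -0.28 (adjusted p = 0.694). In Kn ME 0 of 25 passed the limma test, which 5.29% of all probe sets passed, and the median was 0.13. Of the 25 genes 10 had an unadjusted limma p under 0.05, beside 19.8% of all probe sets. The 2 shares are of unlike sets, since 24 of the 25 probe sets of the list had means above the median of all values. The second fall in Ab ME was that of bou, a Ly6-family protein needed for septate junctions (-1.08, SE 0.27, limma adjusted p = 0.0334). It was lost in 5 of 15 alternatives, among them without Control replicate 2 (0.0556) or 3 (0.0775) and without Ab ME replicate 2 (0.112) or 3 (0.108). The count for Ab ME ranged from 0 without Ab ME replicate 2 to 5 without Control replicate 1, and was 1 without Control replicate 2 or Ab ME replicate 1 or 3. The count for Kn ME became 2 without Control replicate 1 or Kn ME replicate 3, and 1 without Control replicate 2 or 3.

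Genes of proteins that assemble with Nrx-IV did not pass. The band 4.1 protein cora, which binds its intracellular tail, differed by 0.40 in Ab ME and 0.13 in Kn ME (limma adjusted p = 0.133 and 0.698). Cont, the fly contactin, differed by 0.52 and -0.18, and the brightest probe set of the adhesion molecule Nrg by 0.36 and 0.33. Another Nrg probe set differed by 0.33 and 0.26. A dimmer Nrg probe set went the other way, by -0.88 and -1.0 (limma adjusted p = 0.248 and 0.288). The scaffold protein vari had the smallest adjusted p of the list in Kn ME (difference 1.42, adjusted p = 0.0554). Gli, gliotactin of the corners where 3 cells meet, had values of 0.77, 1.67 and 1.63 (Ab ME) and 2.98, 2.44 and 3.38 (Kn ME). The direct difference of 1.58 for Gli did not pass (SE 0.37, adjusted p = 0.147).

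**Figure D4:**
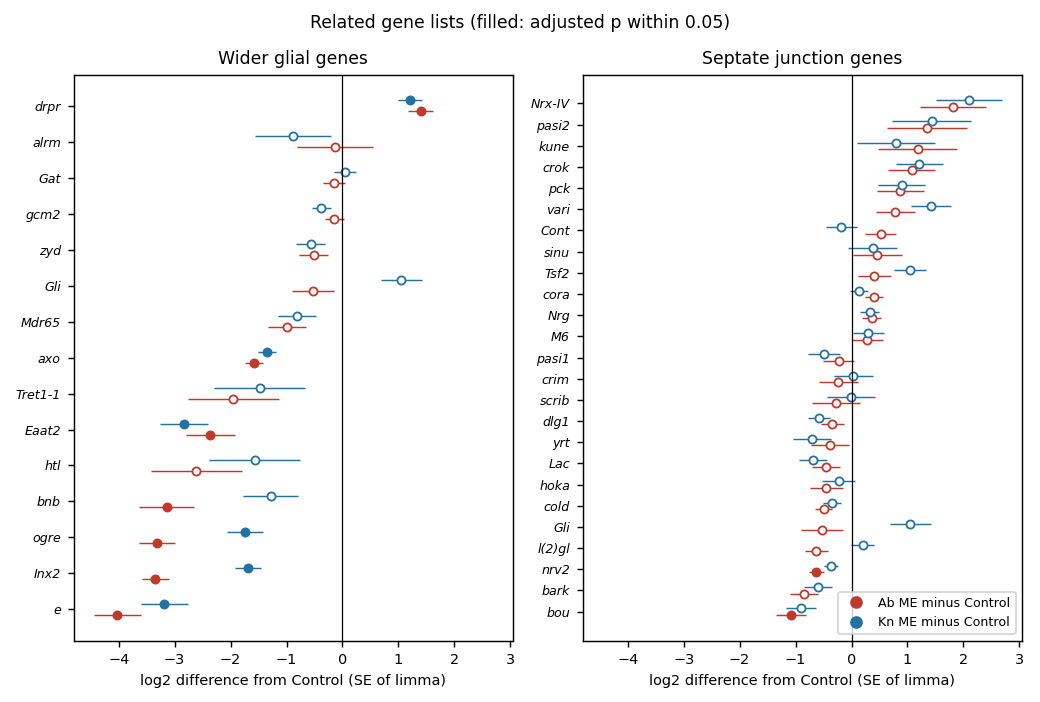
Log2 differences from Control (horizontal axis) with the SE of limma, for 15 wider glial genes (left) and 25 septate junction genes (right), the brightest probe set of each. Filled points passed at an adjusted p of 0.05. Filled points on the left are mostly falls down to -4.03, and nrv2 and bou in Ab ME are the only filled points on the right.

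Markers of other cell types also differed between the groups. The 11 hemocyte genes had a summed log2 level per array of 65.8 to 86.7 (Control), 106.3 to 108.3 (Ab ME) and 100.3 to 103.2 (Kn ME), and 11 rose in Ab ME and 7 in Kn ME. Of 10 neuronal genes 6 fell and 1 rose in Ab ME, and 4 fell and 1 rose in Kn ME, with summed levels of 51.3 to 52.3, 34.0 to 37.3 and 37.6 to 40.4. The rise was that of the brightest ct probe set. Another ct probe set rose by 2.0 in Ab ME (limma adjusted p = 0.00993) and differed by 1.28 in Kn ME (adjusted p = 0.0915). A dimmer ct probe set, with a mean of 1.64 over the 9 arrays, fell in both groups (-2.02 and -1.59, limma adjusted p = 0.00358 and 0.021). Of 8 epidermis and cuticle genes 3 fell in Ab ME and 2 in Kn ME (27.3 to 33.4, 13.4 to 16.3 and 20.1 to 23.2). Of 4 genes listed as tracheal 2 (serp and verm) fell and 1 (sty) rose in each group (21.2 to 22, 16.0 to 18.1 and 17.7 to 18.7). The tracheal receptor btl stood at 1.32 or less on every array, below the median of all values. Of 6 muscle genes 4 fell in Ab ME and 0 passed in Kn ME, where 1 had an unadjusted limma p under 0.05 (31.8 to 39.1, 22 to 24.1 and 32.7 to 35.3). Of 3 fat body genes 1 fell in Ab ME and 0 passed in Kn ME, again with 1 at an unadjusted limma p under 0.05 (10.0 to 13.0, 6.2 to 7.7 and 9.2 to 9.9). Over all probe sets 8.72% rose and 5.25% fell in Ab ME, and 3.34% rose and 1.95% fell in Kn ME. In Kn ME 19.8% of all probe sets had an unadjusted limma p under 0.05. The part of these cell types in the differences of the glial genes was not tested.

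Over the 9 arrays the 8 genes did not vary together. Gs2 and nrv2 had a Pearson r of 0.97, loco and Nrx-IV of 0.92, and Gs2 and loco of -0.84, while repo and gcm stood at 0.13. These values describe 9 arrays in 3 groups and follow the group means. Of 6987 genes with a mean above the median of all values, those most like Gs2 over the 9 arrays were kon, kmr and ko (r = 0.99, 0.99 and 0.98). Those most like loco were CG33298, RhoGDI and Sdhaf3 (0.99, 0.99 and 0.98), and those most like Nrx-IV were Arpc2, CG12567 and qkr54B (0.99, 0.99 and 0.98). For moody they were AlkB, dwg and mRpL44 (0.92, 0.88 and 0.88). For the dim genes repo and wrapper they were CG4199, PrBP and CG2924 (0.95, 0.93 and 0.92) and BomS5, CG12877 and CG4210 (0.95, 0.94 and 0.93).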

How the data were processed

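Total RNA of sorted cells was hybridized to 9 single-colour arrays. Per the submitters' processing notes, the authors used RMA to make the deposited log2 values. The log base was not stated and was inferred from the range, 0.10 to 13.84. The RMA version and which arrays were normalized together are not given in the sources used here. Scanner output and scan dates were not used, so batches were not examined. Precision is limited by the number of arrays.

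Of 18952 probe sets, 183 controls were left out. Probe sets with 1 gene symbol (13646) were named, 13543 of them by current symbol from RefSeq genes (assembly Release 6 plus ISO1 MT). The brightest probe set stood for a gene. Differences came from limma 3.58.1 in R 4.3.3, with 1 term per group over all 9 arrays (6 residual and 2.44 prior degrees of freedom), 2-sided tests, Benjamini-Hochberg adjustment over 18769 probe sets and a threshold of 0.05. The fit was tested on simulated data. No pair of arrays was identical.

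The 9 genes and all lists were chosen with earlier results of these data known. Every member is named, with partners and up to 6 called genes of each related list. For likeness, members with a range of at least 1 log2 unit were compared by Pearson r with all bright genes, and 3 genes each were named. Over 12 lists, 94 of 113 genes had a named probe set. Alternatives were another quantile normalization, centring, a filter on dim probe sets, only the 6 arrays compared, another prior, the replicate number as a block, and each array left out. Deviations of same-numbered samples correlated at 0.034 to 0.272, not all above 0.1, so the numbers were not taken as pairs. For replicate 3 the correlations were the highest, 0.211 to 0.272. What same-numbered samples share was not tested beyond the block among the alternatives.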

Additional observations from a re-analysis of the deposited data

Results flagged for a closer look

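Inx2, a gap junction subunit of glia and epithelia, differed between Kn ME and Ab ME themselves. Its values were 9.32, 9.68 and 9.59 (Control), 6.02, 6.63 and 5.89 (Ab ME) and 7.89, 7.51 and 8.10 (Kn ME), so that the 3 groups did not overlap. The difference of Kn ME minus Ab ME was 1.65 (SE 0.24, limma adjusted p = 0.0305). It did not pass without Ab ME replicate 1 (adjusted p = 0.112) or 3 (0.0818), without any single Kn ME array (up to 0.114) or with the replicate block (0.0597). This was the single gene past the threshold in that comparison among the glial, septate junction, moody pathway, sodium pump and glutamine cycle genes measured. Groups of 3 arrays are too small for the test of single outlying samples, which was not run.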

How the results depend on the processing

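Against Control, the falls of Gs2, Eaat2, Inx2, axo and e in both groups, of bnb and ogre in Ab ME, and the rise of drpr in Ab ME, passed under all 15 alternatives. The count of glial genes past the threshold was 3 in Ab ME and became 1 with only the 6 arrays compared, and 1 to 4 with 1 array left out. In Kn ME it was 2 and became 1 with only the 6 arrays compared, 1 with the replicate block, and 1 to 3 with 1 array left out. The septate junction count in Ab ME was 2 and became 4 with another quantile normalization, 1 with only the 6 arrays compared, 0 with the trend and robust prior, and 0 to 5 with 1 array left out. In Kn ME it was 0 and became 1 with centring, 2 with the filter on dim probe sets, 1 with the replicate block, and 0 to 2 with 1 array left out. The wider glial count between Kn ME and Ab ME was 1, and 0 to 1 with 1 array left out. With the replicate block, and without Kn ME replicate 2, the count was 1 though Inx2 did not pass, so another gene of the list passed there. The cause of these shifts was not tested. Signs turned only for differences that did not pass. For gcm in Kn ME they were 0.03 with quantile normalization, 0.05 with centring and -0.21 to 0.17 with 1 array left out. For moody in Ab ME they were 0.09 with centring and -0.66 to 0.45 with 1 array left out. For loco between Kn ME and Ab ME they were -0.01 with centring and -0.14 to 0.20 with 1 array left out. For wrapper they were -0.71 to 0.04 in Kn ME and -0.05 to 0.40 between the groups, with 1 array left out. The replicate block ended the calls of loco in Kn ME (0.0663), Galphao in Ab ME (0.0571) and Inx2 between the groups (0.0597), and no other named call. Since each glial gene had 1 probe set, the mean over probe sets gave no other value. With the filter on dim probe sets repo, gcm and wrapper were not tested.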
